A study of Arabidopsis thaliana with 17 samples.

Results

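Transcript levels in the shoots and the roots of 4-week-old Arabidopsis thaliana plants were compared across 3 lines: the Col-0 wild type (WT) and KO1 and KO3, plants homozygous for deletions in NBR1 that had been made with CRISPR/Cas9, with the editing transgene removed by crossing. NBR1 encodes a selective autophagy receptor. The comparison covered all 17 arrays of the series, 9 of shoots and 8 of roots, with 3 arrays for each line and organ except WT roots, which had 2 (replicates 1 and 3). It took in every probe set that could be given a gene name, 18107 of the 28583 on the array (63.3%), of which 17349 represent 1 gene. All plants of the 3 lines grew in hydroponic boxes under short days, none received a further treatment, and plants were divided into shoot and root before RNA was taken from portions of several plants for each sample, so a sample is a pool and not a plant.

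Shoots and roots divide the work of the plant. The shoot holds the chloroplasts, in which photosystems, the cytochrome b6f complex and ATP synthase convert light energy and the Calvin cycle fixes carbon, and its surface carries stomata and a waxy cuticle. The root takes up water and ions through root hairs and other outer cells, filters them at the endodermis, and contains plastids without photosynthesis. Whole organs contain many cell types, and fewer cells of a type and less RNA per cell cannot be told apart in these samples.

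The values are log2 signals that the authors normalized with RMA, and their distribution differed between the organs. The array median was 2.61 to 2.67 in roots and 1.77 to 1.85 in shoots, apart from KO1 shoots replicate 1. That array had a median of 1.72 and a narrower spread, with an SD of 1.41 over probe sets against 1.94 to 2.07 in the other shoots arrays, and its mean correlation with the other shoots arrays was 0.934 against 0.971 to 0.976. NBR1 itself matched the labels in each organ. Its signal was 5.73, 6.44 and 6.37 in WT shoots and 1.52 to 1.81 in the 6 KO shoots arrays, and it was 7.41 and 7.23 in WT roots and 3.26 to 4.59 in the 6 KO roots arrays. All 5 leaf markers that could be measured (LHCB4.1, RCA, PRK, YAB3 and FAMA) were higher in shoots, with every shoots array above every roots array. Only 2 root markers could be measured, and 1 of them, EXPA7, was higher in roots. The other, PLT2, differed by less than 2-fold, with −0.90 on the log2 scale and −0.31 after the quantile normalization described below. The remaining 12 leaf and 17 root markers were not among the named probe sets.

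Most of the organ difference, counted on the deposited values, lay on the root side. With an adjusted p under 0.05 and at least a 2-fold difference as the threshold, 1100 probe sets (6.07%) were higher in shoots and 5675 (31.3%) were higher in roots, so that 16.2% of the calls were for shoots. After quantile normalization, which gives all arrays the same distribution, 1858 (10.3%) were higher in shoots and 2529 (14%) in roots, and the shoots share of the calls was 42.4%. With array medians subtracted, 2864 (15.8%) and 2603 (14.4%) were called and the share was 52.4%, and with the arrays centred on listed reference genes, 4123 (22.8%) and 2358 (13%) were called and the share was 63.6%. The median difference over all probe sets moved from −0.32 as deposited to 0.01 after quantile normalization, 0.50 with medians subtracted and 0.60 on reference genes. No probe set was called in one direction as deposited and in the other after quantile normalization, but 309 of those called higher in roots had a difference of the opposite sign.

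The excess on the root side was unevenly spread over signal levels. When the probe sets were ordered by mean signal and divided into 10 equal bins, the median difference was 0.03, −0.00 and −0.05 in the lowest bins, reached −1.53 in bin 7, and was −0.56 in the highest. After quantile normalization the medians of the bins lay between −0.39 and 0.11. The reference genes, which are used as controls because their levels vary little in many tissues, moved with this shift. Of 11 measured, 6 were called higher in roots as deposited, with a median difference of −1.14, and 0 were called in either direction on both scalings, with a median of −0.22 after quantile normalization. Which of the scalings gives the true level of an average transcript in the 2 organs was not tested. A gene is therefore described below as higher in one organ where it passed the threshold both as deposited and after quantile normalization, a rule met by 1088 probe sets in shoots (6.01%) and 2447 in roots (13.5%). All 1088 and 2095 of the 2447 (11.6% of those tested) also passed on the other 2 scalings. Values are given as deposited, as shoots minus roots on the log2 scale, unless stated.

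Without KO1 shoots replicate 1, 1159 probe sets were higher in shoots and 5421 in roots as deposited, and 1098 of the 1100 and 5398 of the 5675 calls were kept. Arrays of the organs did not overlap for 7631 probe sets (42.1%), and 843 genes in shoots and 2190 in roots were both called and without overlap on both scalings. Among the probe sets called on both scalings, 399 in shoots and 822 in roots differed by 3 or more on the log2 scale as deposited, 219 and 312 by 4 or more, and 56 and 50 by 6 or more. By the quantile-normalized difference the counts were 522 and 441, 281 and 207, and 60 and 50, so the side with more large differences depends on the scaling.

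Several of the 12 genes with the largest shoots excess encode proteins of the chloroplast. The signal of PSAE-1, a peripheral subunit of photosystem I, ranged from 7.94 to 10.14 in shoots with a median of 10.05, and from 0.67 to 2.51 in roots with a median of 1.28. All shoots arrays lay above all roots arrays, and the difference was 8.43 ± 0.25 (SE, limma adjusted p = 3.87e-15) as deposited and 8.09 after quantile normalization. SBPASE, the sedoheptulose-bisphosphatase of the Calvin cycle, ranged from 7.41 to 10.19 in shoots (median 10.02) and from 1.19 to 2.44 in roots (median 1.57), a difference of 8.06 ± 0.28 (SE, limma adjusted p = 3.39e-14). RCA, the activase of Rubisco, ranged from 10.14 to 11.26 in shoots with a median of 11.13. Its roots signal was 2.93 to 4.66 (median 3.40), and the difference was 7.54 ± 0.17 (SE). The other members of this group of 12 include the photosystem genes PSBW (7.36) and PSAN (7.35), the light-harvesting gene LHB1B2 (7.39), the geranylgeranyl reductase gene AT1G74470 (7.33), which serves chlorophyll and tocopherol synthesis, and COR15A (8.12), which encodes a cold-regulated protein of the chloroplast.

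ECS1 had the largest difference of all, 8.44 ± 0.29 (SE). It ranged from 8.14 to 10.31 in shoots with a median of 10.21, and from 0.98 to 3.44 in roots with a median of 1.21. AT5G42530 (7.91), AT1G66100 (7.63) and AT2G42220 (7.42) complete the group. In each of the 12 genes the lowest shoots array was KO1 shoots replicate 1, and without that array the differences were 7.5 (PSBW) to 8.65 (ECS1). In 10 of the 12 the highest roots array was KO3 roots replicate 3, with 3.44 for ECS1, 3.19 for COR15A, 4.66 for RCA and 4.41 for PSBW, and without it the differences were 7.34 to 8.66. The part of that array in these values was not tested.

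The 12 genes with the largest roots excess had smaller spreads. Their SE was 0.08 to 0.14, against 0.17 to 0.31 for the 12 shoots genes. Without KO1 shoots replicate 1 these ranges were 0.08 to 0.14 and 0.08 to 0.23. AT3G54040 ranged from 9.25 to 9.59 in roots with a median of 9.40, and from 1.07 to 1.70 in shoots with a median of 1.31. Every roots array lay above every shoots array, and the difference was −8.11 ± 0.09 (SE, limma adjusted p = 2.1e-20). SBT4.12, which encodes a subtilase, a protease of the subtilisin family, ranged from 8.06 to 8.79 in roots (median 8.48) and from 0.77 to 1.2 in shoots (median 1.05), a difference of −7.46 ± 0.09 (SE). AT5G26280, annotated as a TRAF-like family protein, ranged from 8.19 to 9.25 in roots and from 0.71 to 1.74 in shoots, a difference of −7.76 ± 0.13 (SE).

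AT4G15390, annotated as a transferase family protein, differed by −7.00 ± 0.11 (SE). The other 8 genes of this group, for which the annotation used here gave no name, were AT5G26130 (−8.05), AT4G30170 (−7.98), AT4G08380 (−7.74), AT3G32980 (−7.71), AT5G64100 (−7.48), AT3G01190 (−7.27), AT5G17820 (−7.21) and AT4G33420 (−7.09). Quantile normalization made all 12 differences larger, between −7.13 and −8.53. The shoots signals of these genes lay near or below the array medians, and how far the lower end of the scale limits their differences was not tested.

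**Figure D1:**
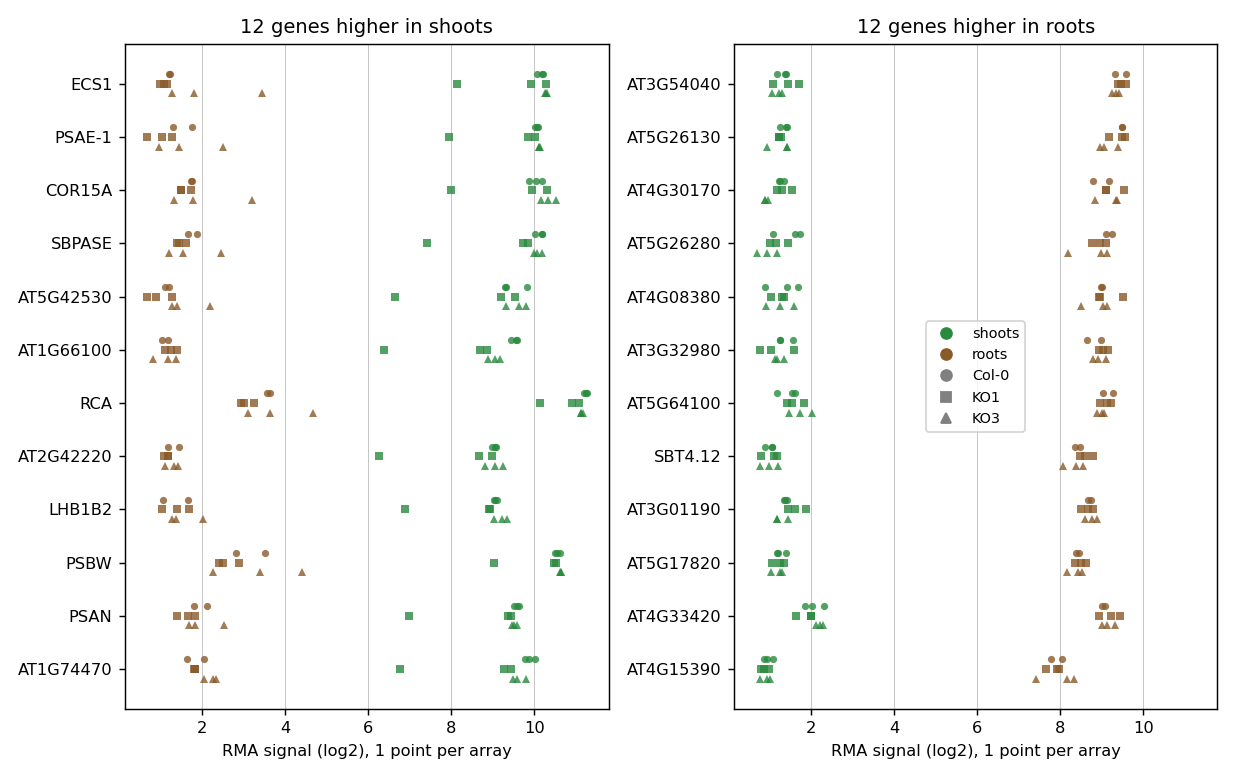
Each point is the deposited RMA signal (log2, horizontal axis) of 1 array for the 12 genes highest in shoots (left) and the 12 highest in roots (right), with green for shoots, brown for roots and the marker shape for the line. The 2 colours do not overlap in any row, and the leftmost green point of every row on the left is KO1 shoots replicate 1.

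Genes of the photosynthetic apparatus that are encoded in the nucleus were described through lists of known members, of which only the named probe sets could be measured. All 4 measured photosystem subunits were higher in shoots, with a median difference of 7.35, against −0.32 over all probe sets. PSBY, a small subunit of photosystem II, had the smallest of these, 4.02. Of 4 light-harvesting genes 3 were higher in shoots. LHCB4.2 ranged from 6.66 to 9.27 in shoots and 1.13 to 2.24 in roots, and LHCB4.1 from 6.20 to 8.29 and 2.67 to 3.39. Their close relative LHCB4.3 was at 1.17 to 1.65 in shoots and 0.86 to 1.14 in roots, a difference of 0.36 ± 0.08 (SE) that fell short of the 2-fold minimum although the arrays did not overlap. Probe sets of such similar genes can share target sequence, and this was not examined.

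Carbon fixation, chlorophyll synthesis and the plastid ribosome followed the same direction. All 3 Calvin cycle genes measured were higher in shoots, among them PRK, the phosphoribulokinase, by 5.54 ± 0.30 (SE), with shoots at 4.01 to 7.17 and roots at 0.71 to 1.25. Of the 3 chlorophyll genes, PORB, a protochlorophyllide oxidoreductase, differed by 6.23, the methyltransferase CHLM by 3.91, and GSA1, which acts in the early pathway to 5-aminolevulinate that roots also need for haem, by 1.16. PRPS6 and PRPS10, nuclear genes for plastid ribosomal proteins, differed by 3.79 and 3.61. In photorespiration the hydroxypyruvate reductase HPR1 was higher in shoots by 7.22 and the glycine decarboxylase subunit GDCT by 2.79. GLYK, the glycerate kinase of the same pathway, had 4.94 to 7.40 in shoots and 6.82 to 8.52 in roots, a difference of −0.71 that did not pass. Of 4 starch and sucrose genes BAM3, a chloroplast beta-amylase, was higher in shoots by 5.18 ± 0.39 (SE) and the starch branching enzyme gene SBE2.2 by 1.00.

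Genes of leaf form and of the shoot surface were mixed. The YABBY factors YAB2, YAB3 and YAB5, which mark the lower side of leaves, were higher in shoots by 2.86, 3.69 and 2.45. YAB3 ranged from 3.96 to 5.62 in shoots and from 1.25 to 1.71 in roots, with no overlap. The other 4 genes of the list did not pass on both scalings: CLV3 and JAG had differences of 0.05 and −0.10, and PHV and GRF2 had −1.82 and −1.03 as deposited and −0.66 and −0.08 after quantile normalization. In the stomatal list GC1, a gene of guard cells, ranged from 4.32 to 6.54 in shoots and from 0.71 to 1.23 in roots, a difference of 5.19, and FAMA, the factor of the last step to guard cells, differed by 1.85. MUTE and SPCH, which act earlier in the lineage, had 0.05 and 0.59. EPFL9, the peptide that promotes stomata, passed only after quantile normalization, at 0.85 as deposited and 1.45. The wax ester synthase gene WSD1 was higher in shoots by 1.65 ± 0.22 (SE). Over all lists of leaf processes, 43 of 57 measured genes (75.4%) were higher in shoots and 1 in roots, with a median difference of 2.79 (2.47 after quantile normalization). Over all probe sets the shares were 6.01% in shoots and 13.5% in roots. The exception was CYP79F2, an enzyme of aliphatic glucosinolate synthesis, which ranged from 4.46 to 6.03 in roots and from 1.18 to 2.08 in shoots, a difference of −3.99 ± 0.16 (SE).

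**Figure D2:**
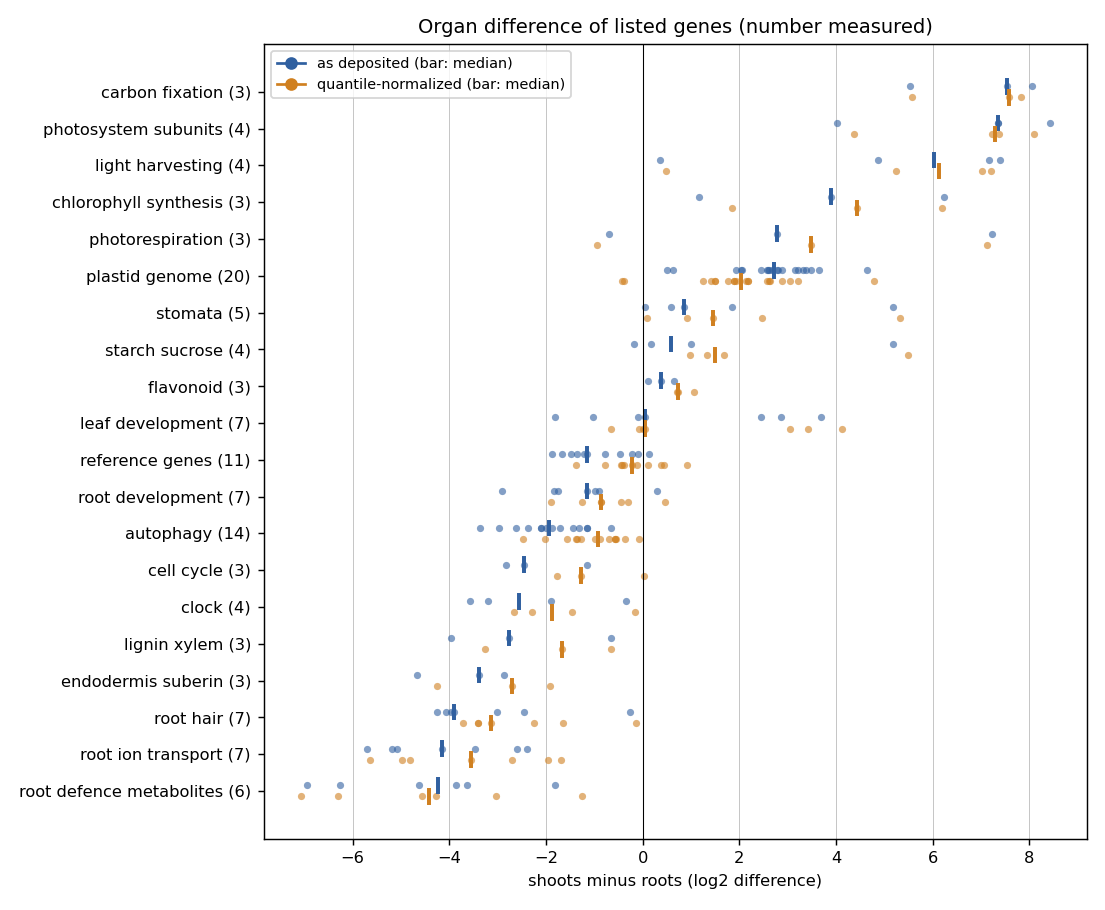
Each point is the shoots minus roots difference (log2, horizontal axis) of 1 gene in a list (rows, number measured in brackets), blue as deposited and orange after quantile normalization, and each vertical bar is the median of the list. The medians run from 7.54 for carbon fixation to −4.24 for root defence metabolites as deposited, and the reference genes move from −1.14 to −0.22 between the scalings.

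A list of genes for ion uptake and transport in roots, chosen for that role, was measured in 7 members. All 7 were higher in roots, with a median difference of −4.14 (−3.56 after quantile normalization). FIT, the bHLH factor that drives iron uptake, ranged from 6.73 to 7.68 in roots with a median of 7.11, and from 1.01 to 1.8 in shoots with a median of 1.41. The groups were far apart, with a difference of −5.71 ± 0.12 (SE, limma adjusted p = 3.67e-17). NRAMP1, which imports manganese and iron, differed by −5.18, the phosphate transporter PHT1;1 by −5.08, and HKT1, which removes sodium from the xylem sap, by −4.14. AHA7, a proton pump of the plasma membrane, had −3.47, the ammonium transporter AMT1;3 −2.60, and the potassium transporter HAK5 −2.39. Of 2 aquaporins both were higher in roots, PIP2;3 with −2.03 ± 0.28 (SE) and NIP1;1 with −1.71.

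Root hair genes and barrier genes followed. Of 7 root hair genes 6 were higher in roots, with a median over the list of −3.90. EXPA7, a wall-loosening expansin, ranged from 5.0 to 5.89 in roots and from 1.24 to 1.78 in shoots, a difference of −4.06 ± 0.12 (SE). AGP3, PRP3 and XTH26, all genes of wall proteins, had −4.25, −3.97 and −3.90, EXPA18 had −3.01, and LRX1, a wall protein with leucine-rich repeats, had −2.45. XTH13 had −0.26 and overlapping arrays. In the endodermis, SGN1 and GSO1, kinases that control the Casparian strip, were higher in roots (−4.67 and −3.38), as was FAR1 (−2.86), a reductase that makes fatty alcohols for suberin. Of 7 genes of root development, JKD (−2.90), a zinc finger factor of the ground tissue, and LBD16 (−1.75), which acts in lateral root formation, were higher in roots on both scalings. LHW (−1.82) and LBD29 (−1.14) passed only as deposited, and the stem cell factors PLT2 (−0.90) and BBM (−0.99) stayed below 2-fold. As deposited, all roots arrays of PLT2 and BBM lay above all shoots arrays, as in 36.3% of all probe sets. After quantile normalization PLT2 had −0.31 and BBM −0.44.

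The myrosinase-like beta-glucosidases of the endoplasmic reticulum and their partners, which act in defence, were higher in roots in 6 of 6 genes, with a median of −4.24. BGLU21 ranged from 8.29 to 9.01 in roots with a median of 8.78, and from 1.36 to 2.32 in shoots with a median of 1.68. Its difference was −6.94 ± 0.13 (SE, limma adjusted p = 7.94e-18). BGLU22 had −6.27, BGLU23 −3.86, NAI2, a structural protein of endoplasmic reticulum bodies, −4.62, the myrosinase TGG4 −3.63, and NAI1, the bHLH factor of these genes, −1.81. BGLU23 was also well measured in shoots, at 4.45 to 6.55 against 9.37 to 10.15 in roots. BGLU21, BGLU22 and BGLU23 are near copies of each other, so their separate values are uncertain. Over all lists of root processes 25 of 32 measured genes (78.1%) were higher in roots and 0 in shoots on both scalings by the limma fit. Over all probe sets the shares were 13.5% and 6.01%. Of the 7 that passed in neither direction, ACR4 had the only positive difference, 0.31. The mean signal of the 32 genes was 4.79 to 5.12 over roots arrays and 1.69 to 1.86 over shoots arrays, KO1 shoots replicate 1 included.

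Several lists that belong to neither organ by design also lay on the root side. Among clock genes, TOC1 ranged from 5.33 to 5.95 in roots and from 1.8 to 2.37 in shoots, a difference of −3.57 ± 0.09 (SE), PRR5 had −3.21 and GI −1.89, and ELF4 had −0.34 and did not pass. The labels give no hour of harvest, and a different phase in the organs and a different level cannot be told apart. Of the autophagy genes measured, 13 of 14 were called higher in roots as deposited, against 31.3% of all probe sets, with a median of −1.94. On both scalings 6 of 14 were, against 13.5% of all probe sets, with a median of −0.93 after quantile normalization. ATG8A, a ubiquitin-like protein that coats autophagosomes, ranged from 4.87 to 5.51 in roots and from 1.55 to 2.29 in shoots, a difference of −3.36 ± 0.10 (SE), and ATG8H had −2.98, ATG101 −2.62, ATG8E −2.37 and ATG8G −2.11. NBR1, the gene deleted in KO1 and KO3, is the sixth gene of that count, and its shoots and roots arrays overlapped. ATG8F, at 4.24 to 7.17 in shoots and 6.59 to 7.65 in roots, had −0.65 and did not pass, and its sign turned with medians subtracted (0.17) and on reference genes (0.27).

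Cytokinin synthesis was represented by CYP735A2, which makes trans-zeatin forms, and IPT3. They differed by −4.07 ± 0.13 (SE) and −2.78 ± 0.15 (SE). Among genes of lignin and xylem, LAC11, a laccase of lignin polymerization, had −3.97 and PAL1 −2.76, whereas HCT had −0.65. Of 3 cell cycle genes AUR1 and TOPII were higher in roots (−2.46 and −2.83), and CYCA2;3 passed only as deposited. CYP79B2, of indole glucosinolate synthesis, had −2.45. Of 2 genes listed for low oxygen, SRO5 was higher in roots (−2.53) and LDH, the lactate dehydrogenase, passed only as deposited (−2.01). HYH, of light signalling, had −0.11 and its sign turned on the other 3 scalings (0.50 to 0.82). None of the 3 flavonoid genes (DFR, UF3GT and PAP1) and neither of the defence genes PDF1.2 and VSP2 passed on both scalings, and VGD1, a pollen gene used as a check, was at 0.89 to 1.49 in shoots and 0.82 to 1.15 in roots. No gene of the nitrogen and sulfur assimilation list was among the named probe sets.

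The genes of the plastid genome differed in the same direction as the nuclear photosynthesis genes but by less. All 63 that were measured had a positive difference as deposited, with 61 called higher in shoots, 57 on both scalings, and 0 called higher in roots. The median difference was 2.97 (2.17 after quantile normalization). Over the 17030 nuclear genes, 958 were called higher in shoots on both scalings. RNA of rbcL, the large subunit of Rubisco, ranged from 11.53 to 12.29 in shoots with a median of 12.23, and from 9.21 to 10.63 in roots with a median of 9.43. The arrays did not overlap, with a difference of 2.58 ± 0.16 (SE, limma adjusted p = 6.54e-11). Its nuclear activase RCA, given above, differed by 7.54 between the organs. How far the upper end of the scale limits the differences of the plastid genes was not tested.

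Within the plastid genome the genes were grouped by role. All 18 photosystem genes were higher in shoots, with a median of 3.30 and a range from 2.05 (psbA, of the reaction centre of photosystem II) to 5.85 (psbT). The signal of psbT ranged from 7.26 to 10.2 in shoots and from 1.78 to 5.41 in roots. The 10 genes of the NDH complex, which returns electrons to the plastoquinone pool, had a median of 3.68 and reached 4.75 in ndhJ and 4.65 in ndhF. The 6 cytochrome b6f genes had a median of 2.71 and the 4 ATP synthase genes 2.87, and all 10 were higher in shoots on both scalings. The 4 RNA polymerase genes also were, with 1.93 (rpoA) to 3.31 (rpoB), although only in rpoB did every shoots array lie above every roots array.

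The 6 genes that were not called on both scalings include ribosomal and housekeeping genes. Of 13 ribosomal protein genes all were called as deposited and 10 on both scalings. Those that were not were rpl20 (1.03), rpl16 (1.35) and rpl14 (1.53), with −0.01, 0.26 and 0.52 after quantile normalization. The difference of accD, a subunit of the plastid acetyl-CoA carboxylase, was 0.50 ± 0.31 (SE) as deposited and −0.42 after quantile normalization, and that of clpP, a subunit of the plastid protease, was 0.62 ± 0.23 (SE) and −0.38. The remaining gene was ycf3, which serves the assembly of photosystem I, with 1.66 and 0.69. The clpP signal was 9.16 to 11.27 in shoots and 9.74 to 10.57 in roots, with overlap. Without KO1 shoots replicate 1, in which accD was at 7.29, accD had 0.82 and clpP 0.85 as deposited, and the median over the 63 genes was 3.07. In KO1 the median was 2.65, in KO3 2.92 and in WT 3.41. None of the 63 passed the limma F test for a difference between lines that is described below.

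**Figure D3:**
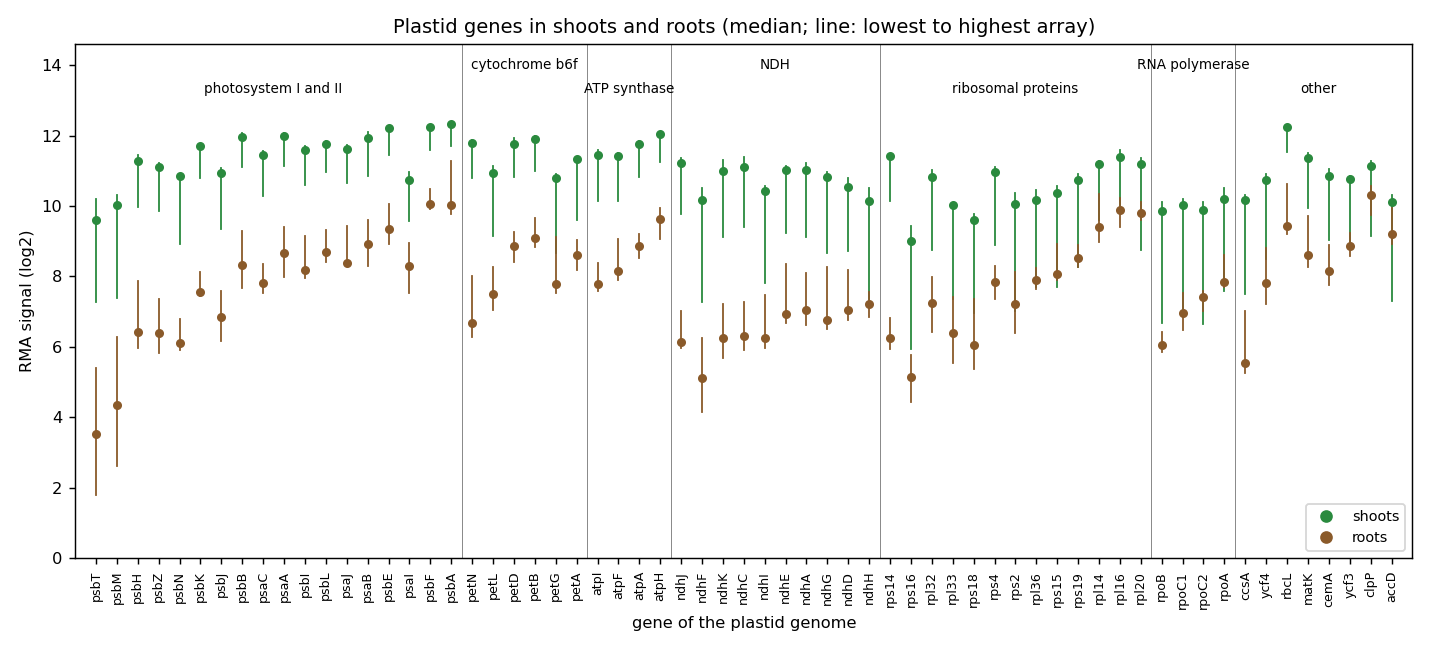
The deposited RMA signal (log2, vertical axis) of 63 genes of the plastid genome, grouped by role, is shown as the median (point) and the lowest to highest array (line) in the 9 shoots arrays (green) and the 8 roots arrays (brown). The gap is widest in psbT (5.85) and closes towards accD (0.50), and the low end of the green lines is KO1 shoots replicate 1 in all 63.

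Gene families, taken by the pattern of their symbols after values had been seen, are given by how many members were higher in each organ on both scalings, beside 6.01% in shoots and 13.5% in roots over all probe sets. Of 8 arabinogalactan protein genes 7 were higher in roots and 0 in shoots, with a median of −5.06. AGP13 ranged from 7.12 to 8.09 in roots and from 1.13 to 1.65 in shoots, a difference of −6.26, and AGP22, AGP24 and AGP2 had −5.83, −5.63 and −5.41. Of 14 WRKY factors 6 were higher in roots and 0 in shoots, led by WRKY6 (−4.57) and WRKY29 (−4.19). Of 26 bZIP factors 9 were higher in roots and 1 in shoots (BZIP34, 1.28).

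Other families had members on both sides. Among 15 nitrate and peptide transporters, NPF6.4 and NPF6.2 were higher in shoots by 5.84 and 5.16 and NRT1.7, which loads nitrate into the phloem of old leaves, by 2.89, while NPF2.7 and NPF4.3 had −5.29 and −4.40. NPF6.2 ranged from 5.76 to 9.0 in shoots and from 2.74 to 3.42 in roots, and NPF2.7 from 1.79 to 2.73 in shoots and from 6.66 to 7.96 in roots. Among glutamate receptor-like channels GLR2.3 and GLR2.2 had −6.10 and −5.12 and GLR2.7 had 3.06. Of the sugar transporters, SWEET11, a sucrose exporter of leaf phloem parenchyma, was higher in shoots by 5.11, at 4.96 to 7.23 against 0.87 to 1.5, and SWEET16, a transporter of the vacuole membrane, had −3.32.

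Enzyme families also had members higher in either organ. Of 26 beta-glucosidase genes 5 were higher in shoots, with BGLU40 (5.85) first, and 6 in roots. Of 55 UDP-glycosyltransferases 6 were higher in shoots, among them UGT88A1 (3.69), and 6 in roots, among them UGT76B1 (−4.45). That is a share of 10.9% each way, against 6.01% in shoots and 13.5% in roots over all probe sets. In the glutathione S-transferases GSTU20 (4.2) and GSTU18 (3.06) were on the shoots side and 6 of 17 on the roots side, with GSTU28 at −3.96. Of 14 xyloglucan endotransglucosylase/hydrolase genes XTH32 (3.55) and XTH27 (1.1) were higher in shoots and 6 in roots, and of 23 expansins EXPA8 (2.76) in shoots and 7 in roots. Of 25 TBL genes, whose products act in wall acetylation, 10 were higher in roots, with TBL36 at −4.85, and 2 in shoots, with TBL26 at 3.72. Single members with large differences in roots were the lectin genes JAL34 (−6.24) and PP2-A8 (−6.23), the peroxidase gene PRX37 (−6.06) and GH3.17 (−4.47), which encodes an enzyme that conjugates auxin.

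The organ difference was then taken within each line. In WT 1206 probe sets (6.66%) were higher in shoots and 5231 (28.9%) in roots. In KO1 the counts were 989 (5.46%) and 6401 (35.4%), and in KO3 1159 (6.4%) and 5418 (29.9%). Of the 1088 probe sets higher in shoots on both scalings, all had a positive difference in each of the 3 lines and 913 (83.9%) were called in each. Of the 2447 higher in roots, 2445 were negative in each line and 2384 (97.4%) were called in each. Their median difference was 2.67 in WT, 2.08 in KO1 and 2.55 in KO3 for the shoots genes, and −2.50, −2.71 and −2.53 for the roots genes. Without replicate 1 of KO1 shoots the KO1 medians were 2.52 and −2.63. Across the 18107 probe sets, which are not independent replicates, the differences of WT and KO3 had a Pearson r of 0.967, those of KO1 and KO3 0.964, and those of WT and KO1 0.939 (0.96 without that array). Only 3 probe sets were called in opposite directions in 2 lines.

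An F test of whether the organ difference was equal in the 3 lines called 34 probe sets (0.188%) at an adjusted p under 0.05, with 1477 (8.16%) at an unadjusted p under 0.05. Of the 34, 28 were also called after quantile normalization and 18 on all 4 scalings, and all 34 were kept, in a total of 97, without KO1 shoots replicate 1. In 32 of the 34 the difference was lower in both KO lines than in WT, in 2 (bZIP58 and AT5G08520) it was higher in both, and 19 kept the same sign in the 3 lines. Taken singly, KO1 differed from WT in 67 probe sets (0.37%), 63 of them lower, and KO3 from WT in 18 (0.0994%), 17 of them lower. KO3 and KO1 differed in 0 by the limma test, with 1003 (5.54%) at an unadjusted p under 0.05. Of the probe sets higher in one organ on both scalings, 13 of 1088 in shoots and 6 of 2447 in roots were among the 34. The count of 34 changed with single arrays of several groups: it was 9 and 12 without WT roots replicates 1 and 3, of which there were only these 2, 18 and 19 without KO1 roots replicates 1 and 2, and 63 without KO1 shoots replicate 2.

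**Figure D4:**
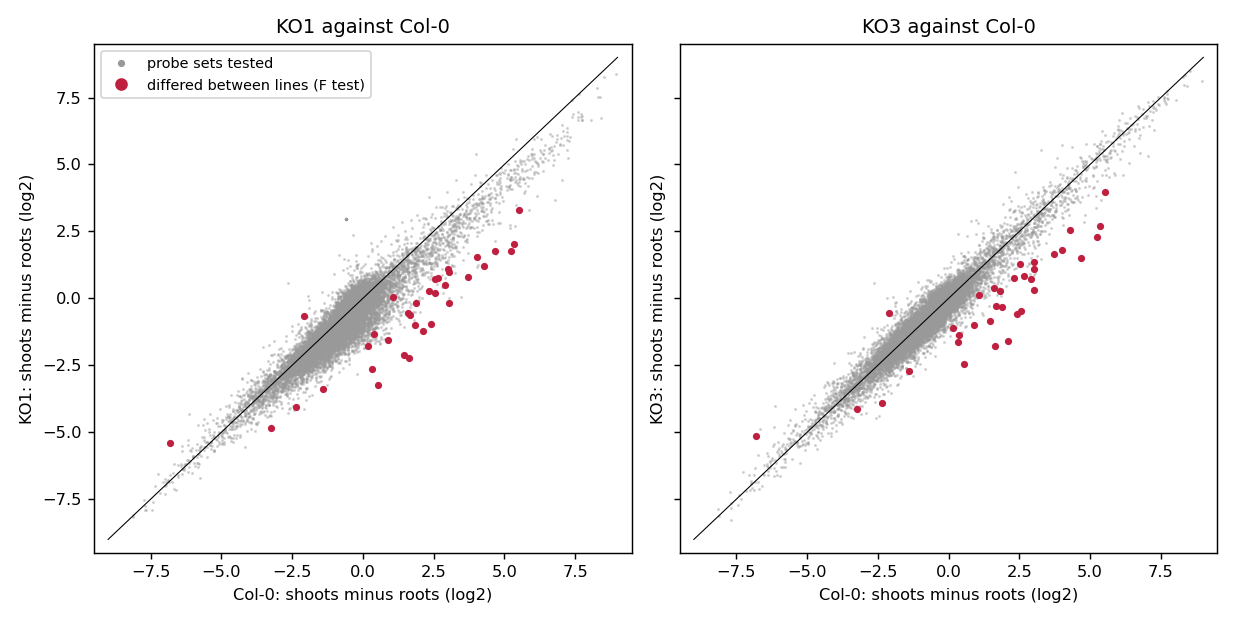
Each point is a probe set, with its shoots minus roots difference (log2) in WT (Col-0) on the horizontal axis and in KO1 (left) or KO3 (right) on the vertical axis, and the black line marks equal differences. The 34 red points passed the F test, and 32 of them lie below the line in both panels.

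In the 10 genes with the highest F, the WT shoots arrays stood above all KO shoots arrays. AT5G47610 had 6.44, 6.17 and 6.72 in the WT shoots, 2.67, 3.67 and 3.26 in KO1 shoots and 3.95, 3.51 and 3.88 in KO3 shoots, against 0.92 to 1.24 in the 8 roots arrays. Its organ difference was 5.34 in WT, 2.03 in KO1 and 2.71 in KO3 (limma F test, adjusted p = 0.00125), so the gene was higher in shoots in each line and by more in WT. AT3G09450 had the same form, with differences of 4.67, 1.78 and 1.5.

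GI, the clock component GIGANTEA, differed in both organs. The WT shoots had 6.02, 5.92 and 6.05 and the KO shoots 2.96 to 4.82, whereas the WT roots had 5.22 and 5.70 and the KO roots 6.87 to 7.08. The organ difference was 0.54 in WT, −3.25 in KO1 and −2.47 in KO3 (limma F test, adjusted p = 0.00125), so the root excess of GI given above came from the KO lines.

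The difference also turned in sign for TBL37, a member of the wall acetylation family, which had 5.96 to 6.37 in WT shoots, 3.59 to 4.51 in KO shoots and 5.04 to 5.48 in all roots arrays, with 0.90 in WT, −1.55 in KO1 and −0.99 in KO3. BMY3, a beta-amylase gene, had 6.02, 6.12 and 6.43 in WT shoots and 1.85 to 2.96 in KO shoots, with organ differences of 2.12, −1.23 and −1.60. PYE, a bHLH factor of the iron deficiency response, had 4.85 to 5.51 in WT shoots, 2.42 to 3.60 in KO shoots and 2.55 to 3.17 in roots, with organ differences of 2.56, 0.21 and −0.47. FIT, the other iron factor described, had −5.77, −5.80 and −5.55 in the 3 lines.

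AT4G12000, annotated as a SNARE-associated Golgi family protein, had organ differences of 1.45, −2.12 and −0.85 in WT, KO1 and KO3, AT1G19490 of 2.42, −0.96 and −0.57, and AT5G54130 of 1.65, −2.23 and −1.77. AT5G15950 had 1.83, −0.99 and 0.26. The WT roots arrays lay within the range of the KO roots arrays or overlapped it in AT1G19490 and AT5G54130, below it in AT4G12000 and above it in AT5G15950. The labels do not say how lines were placed in growth boxes, so line and box cannot be told apart.

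**Figure D5:**
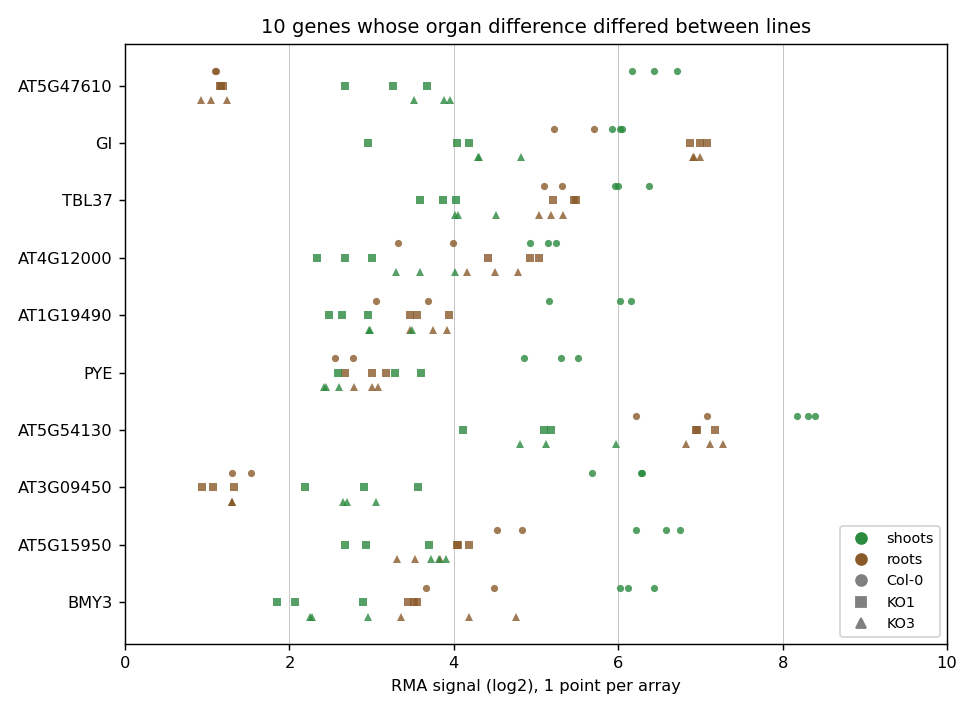
Each point is the deposited RMA signal (log2, horizontal axis) of 1 array for the 10 genes with the highest F, with green for shoots, brown for roots and circles, squares and triangles for Col-0, KO1 and KO3. The 3 green circles (WT shoots) lie to the right of all other green points in each row, by values such as 6.02 to 6.43 against 1.85 to 2.96 for BMY3.

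The member of the 34 with the largest root excess was bZIP58, a transcription factor. Its difference was −6.81 in WT, −5.39 in KO1 and −5.13 in KO3, all in the direction of roots. NBR1 was higher in roots in each line, by −1.14 in WT, −1.92 in KO1 and −2.43 in KO3, and these differences did not pass the F test (limma adjusted p = 0.333).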

How the data were processed

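The deposited table holds log2 signals for 28583 probe sets. The authors made these log2 values with RMA in the Transcriptome Analysis Console on the TAIR10 build, per the labels and the submitters' processing notes, so signal depth is unknown. The number of arrays limits the precision, and the counts also depend on single arrays and on the scaling, as given below. Gene names came from the platform annotation (17504 probe sets) and, for 603 more, from a supplementary table of genes selected for change between lines, of which nothing else was used. limma 3.58.1 in R 4.3.3 (lmFit, eBayes) fitted organ with line as covariate over 17 arrays, and 6 groups for the F test, with Benjamini-Hochberg adjustment over 18107 probe sets. Calls needed an adjusted p under 0.05 and, for organ, 2-fold. The fits were tested on simulated data, and alternatives covered scaling, probe sets, fold, eBayes options, array weights, a replicate block and leaving out arrays. P-values set a difference against the spread between these samples, each of which is a pool of plants. Named genes were the 12 with the highest and the 12 with the lowest difference among single-gene probe sets called without overlap on both scalings, the members of 31 gene lists (136 of 581 genes measured), the 10 with the highest F, and NBR1. Families had at least 5 measured members. Members, lists and tests were chosen with earlier results of these data known. Sequences were not used here.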

Additional observations from a re-analysis of the deposited data

Results flagged for a closer look

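A single array stood apart from its organ by Dixon's gap test in several results, a test that chance alone flags in about 1 in 20 groups, and the values given here are the gap divided by the range of the organ's arrays. KO1 shoots replicate 1 was the low array in shoots for all 12 of the genes highest in shoots: ECS1 (0.82), PSAE-1 (0.864), COR15A (0.736), SBPASE (0.835), AT5G42530 (0.802), AT1G66100 (0.722), RCA (0.679), AT2G42220 (0.809), LHB1B2 (0.828), PSBW (0.883), PSAN (0.899) and AT1G74470 (0.769). It was also the low array in shoots for the mean signal of the lists of autophagy (0.569), carbon fixation (0.808), chlorophyll synthesis (0.616), light harvesting (0.871), photorespiration (0.847), photosystem subunits (0.887), plastid genome (0.768), reference genes (0.815), root development (0.525), starch and sucrose (0.754) and stomata (0.621). The low values thus included reference genes and genes of both organs. KO3 roots replicate 3 was the high array in roots for ECS1 (0.671), COR15A (0.755) and RCA (0.59). Others were AT5G26130, low in KO3 shoots replicate 2 (0.583), AT5G26280, low in KO3 roots replicate 1 (0.547), AT5G54130, low in WT roots replicate 1 (0.57), and the leaf development list, high in KO3 roots replicate 1 (0.567).

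The organ difference itself differed between the lines, by the limma F test, in the 10 genes described, with adjusted p of 0.00125 for AT5G47610 and GI, 0.00148 for TBL37 and AT4G12000, 0.00205 for AT1G19490, 0.00226 for PYE, 0.0027 for AT5G54130, 0.00323 for AT3G09450, 0.0043 for AT5G15950 and 0.00753 for BMY3.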

How the results depend on the processing

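The leading genes and list medians recomputed under the alternatives kept their sign. Of the list medians, 506 values stayed within the spread between arrays of a group and 55 moved beyond it. The leaf development median was 0.05 as deposited and 0.004 without KO1 shoots replicate 1. Some listed genes that did not pass, HYH and ATG8F among them, turned in sign with scaling. The side with more calls turned from roots to shoots with array medians and with reference genes. Against 1100 probe sets higher in shoots, 5675 in roots and 34 that differed between lines, quantile normalization gave 1858, 2529 and 60, array medians 2864, 2603 and 34, reference genes 4123, 2358 and 53, and all probe sets, unnamed ones included, 2188, 9338 and 80. No minimum fold gave 2199 and 9357, a 4-fold minimum 669 and 2190, and calls on all 4 scalings left 2095 in roots. The F test called 52 with trend and robust options and 96 with array weights. Leaving out 1 array gave 1079 to 1159, 5421 to 5762 and 9 to 97. The 97 was without KO1 shoots replicate 1 and the 9 without WT roots replicate 1, and other counts beyond 1.5 times were 63 without KO1 shoots replicate 2, 12 without WT roots replicate 3, 18 and 19 without KO1 roots replicates 1 and 2, 21 without KO3 shoots replicate 2 and 22 without WT shoots replicate 1. The causes were not tested. Chosen after seeing the data, leaving out both KO1 shoots replicate 1 and WT roots replicate 1 gave 1158, 5488 and 32. A replicate block gave 1100, 5674 and 44 as random and 1100 and 5672 as fixed effect. Shoots and roots samples of 1 line and number had residual correlations of 0.03 to 0.224 in 8 pairs, all positive and 2 of them above 0.1. Those of other numbers had −0.224 to 0.131 in 16 pairs, most of them negative and 1 above 0.1. Residuals are deviations from a group mean, so these values are not independent of each other. With only 2 WT roots arrays, the WT values come in pairs of opposite sign, 0.224 and −0.224 among them. The main fits did not pair samples by number, and whether samples of 1 number came from the same plants was not tested. Of single genes in the organ fit, 722 values kept direction and call and 2 lost the call, both NBR1 (−0.96 on reference genes, below 2-fold, and limma adjusted p = 0.139 without the line term). Of the organ differences of KO1 against WT in the genes described, 265 values kept the call and 4 lost it: AT5G54130 and AT5G15950 without WT roots replicate 1 (limma F test, adjusted p = 0.0559 and 0.0576), and AT3G09450 and BMY3 without WT roots replicate 3 (0.0527 and 0.0861). Their differences of KO1 from WT stayed close in size, at −3.44, −2.67, −2.78 and −2.93 against −3.88, −2.82, −2.89 and −3.35 with all arrays.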

Other observations

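Genes of the mitochondrial genome were on the root side for the most part as deposited. Of 15 measured, 12 were higher in roots as deposited, against 31.3% of all probe sets, and 6 on both scalings, against 13.5%. The median difference was −1.5 (−0.50 after quantile normalization), and 1 gene was higher in shoots. That gene, ArthMp025, ranged from 10.60 to 11.53 in shoots and from 8.01 to 10.07 in roots, a difference of 2.4. These genes were named only through the supplementary lists of genes that differed between a line overexpressing NBR1 and WT. They are therefore not a sample of the mitochondrial genome.

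Of 12 cytokinin response regulators measured, 2 (16.7%) were higher in roots on both scalings, near the 13.5% over all probe sets, and 0 in shoots. The median difference of the 12 was 0.10, and RR3 and RR5 had −3.06 and −2.55. RR3 ranged from 5.66 to 6.77 in roots and from 1.82 to 4.50 in shoots. Of 70 measured genes grouped as defensin-like by the pattern of their symbols, PDF2.5, PDF2.1 and LCR68 were higher in roots (−4.42, −3.05 and −2.26). On both scalings 1 of the 70 was called in shoots (1.43%) and 3 in roots (4.29%). Both lie below the shares over all probe sets of 6.01% and 13.5%. The 1 in shoots was PDF1 (1.34), which was taken in by its symbol alone and is not described here as a defensin. Among metal transporters ZIP6 and ZIP9 were higher in roots (−2.29 and −1.87) and NRAMP4, of the vacuole, was higher in shoots (1.09), with overlapping arrays. The CLE peptide genes CLE4 and CLE2 had −2.66 and −2.38. Of 12 CLE genes measured, 2 (16.7%) were higher in roots on both scalings and 0 in shoots, with a median difference of −0.42.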
